A study of Mus musculus with 20 samples.

Results

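Tregs lacking RagA and RagB (RagAB KO) were compared with wild-type (WT) Tregs after stimulation for 8 h. The comparison used 4 of the 20 arrays of the series, 2 for each genotype, chosen by the genotype, state and replicate number in their titles. The cells were CD4+CD25+ T cells of C57BL/6 mice, enriched with CD4 beads and then sorted, and their RNA was hybridised to Clariom S mouse arrays after amplification and biotin labelling. The other 4 arrays of the same experiment held unstimulated RagAB KO and WT Tregs, 2 each, and a separate experiment of 12 arrays compared Rheb1/2 KO with WT Tregs, 3 arrays for each genotype and state. The sources used here do not give the stimulus, the way the genes were deleted, the age of the mice, or whether each array had an animal of its own. KO array 1, KO array 2, WT array 1 and WT array 2 below are the stimulated arrays by the replicate number in their titles, and signals are always given in that order.

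RagA and RagB are small GTPases that pair with RagC or RagD on the surface of the lysosome. When amino acids are plentiful, these pairs, held there by the Ragulator complex, bring the kinase complex mTORC1 to the lysosome, where a second GTPase, Rheb, switches it on. mTORC1 in turn promotes ribosome, nucleotide and lipid synthesis, and together with the Rag proteins keeps the transcription factors TFEB and TFE3, which drive lysosomal genes, out of the nucleus. In regulatory T cells mTORC1 is known for its part in activation and suppressive function. The comparison asks which genes differ when a stimulated Treg lacks the amino acid branch of this pathway.

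Signals are log2 values as the authors deposited them. The medians of the 4 stimulated arrays lay between 7.49 and 7.55, those of the 8 arrays of the experiment between 7.18 and 7.55, and between 2818 and 3548 genes per stimulated array exceeded the 95th percentile of that array's negative controls. WT array 2 stood apart: over all genes its correlation with the other 3 arrays was 0.970 to 0.984, against 0.988 to 0.990 among those 3. The negative controls lay 0.19 higher in KO than in WT arrays (median of 5222, log2). The Y-linked genes Kdm5d and Uty were bright on the 4 arrays numbered 1 (Kdm5d 8.32 to 9.05) and dim on the 4 numbered 2 (Kdm5d 3.78 to 4.91), so each group held 1 array of each kind. Differences within the arrays of the same number are therefore given beside the leading genes. Of the 10 T cell markers measured, 10 lay above the median of each stimulated array, as did 16 or 17 of 17 core Treg genes. Foxp3 was not analysed here.

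Rraga, which encodes RagA, checked the labels. Its signals were 7.17, 7.50, 9.76 and 9.28, so both KO arrays lay below both WT arrays. It fell by 2.18 ± 0.25 (log2, SE, n = 2 against 2; limma, Benjamini-Hochberg adjusted p = 0.00448), and the difference was -2.59 within the arrays numbered 1 and -1.78 within those numbered 2. In the KO arrays its signal was close to the median of all genes. Rragb, which encodes RagB, read 7.38, 6.94, 7.62 and 7.14, with overlapping groups and a difference of -0.22 ± 0.30 (limma adjusted p = 0.955). The sources used here do not place its probes relative to any deleted stretch, so its signal checks nothing.

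Among the 10 genes of the Rag GTPases and Ragulator, Rraga fell and the other 9 did not pass the test, where 0.0103% of all genes fell. The partner GTPases Rragc and Rragd had the highest differences. Rragd read 10.26, 10.48, 9.21 and 9.05 (1.24 ± 0.31, limma adjusted p = 0.261), and Rragc read 8.38, 8.53, 7.64 and 7.37 (0.95 ± 0.31, limma adjusted p = 0.59). In both, each KO array lay above each WT array. The scaffold subunit Lamtor1 differed by 0.01 ± 0.24.

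None of 35 genes of the mTOR complexes and amino acid sensing passed the test in limma. At an unadjusted p below 0.05, 6 lay higher and 0 lower, where 3.69% of all genes lay higher and 1.38% lower. Castor1, the arginine sensor that inhibits mTORC1 through GATOR2, read 10.31, 9.85, 8.99 and 8.48 (1.35 ± 0.32, limma adjusted p = 0.217). Folliculin (Flcn) and its partner Fnip1, which act on RagC and RagD, lay higher in both KO arrays, with signals for Fnip1 of 9.95, 9.81, 9.14 and 8.42 and a difference for Flcn of 1.04 ± 0.32. Tsc1, a brake on Rheb, had a difference of 1.15 ± 0.38 that was larger within the arrays numbered 2 (1.61) than within those numbered 1 (0.69). Mtor, Rptor and Rheb differed by 0.31, 0.25 and -0.04.

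Over all 19505 genes, 20 passed an adjusted p of 0.05 in limma (0.103%), 18 higher in RagAB KO (0.0923%) and 2 lower (0.0103%). At an unadjusted p below 0.05 there were 988 genes (5.07%). After quantile normalization of the 8 arrays 42 genes passed (0.215%), 39 higher (0.2%) and 3 lower (0.0154%), among them all 20 called on the deposited values. The 22 added genes had deposited adjusted p between 0.0511 and 0.226. The median difference of all genes was -0.06 as deposited and -0.03 after quantile normalization. As deposited it was -0.08 for genes with a mean signal below the 25th percentile and 0.08 for those above the 75th. Shares and medians of all genes given below include the dim genes. In each of the 20 genes the KO and WT arrays did not overlap, which also held for 44.3% of all genes (18.1% with KO above WT).

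**Figure D1:**
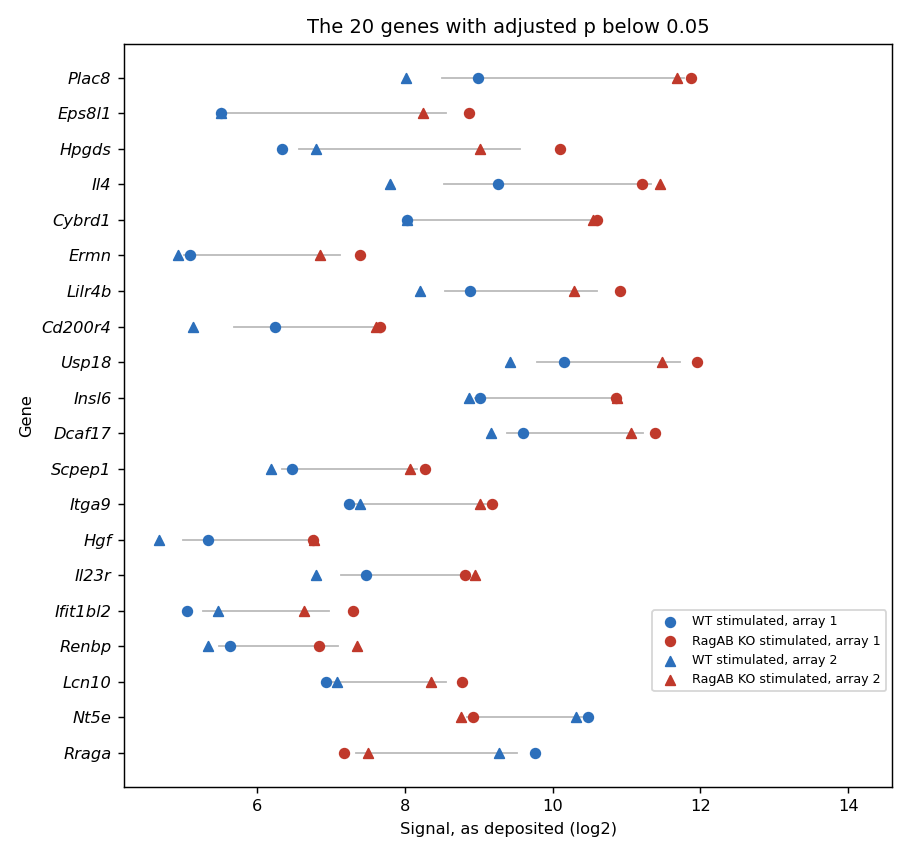
Signals (log2, as deposited, horizontal axis) of the 20 called genes on the 4 stimulated arrays, with genes on the vertical axis ordered by the KO minus WT difference; red marks RagAB KO, blue WT, circles arrays numbered 1, triangles arrays numbered 2, and grey lines join the group means. Rraga and Nt5e lie lower in both KO arrays and the other 18 genes lie higher.

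The calls depended on single arrays; the fit of 4 groups of 2 has 4 residual degrees of freedom. Without KO array 1, only Eps8l1 and Cybrd1 of the 20 remained called, and without KO array 2 they remained with Ermn, Hpgds, Plac8 and Rraga. Without WT array 2, Eps8l1, Cybrd1 and Rraga remained, and without WT array 1, 10 of the 20 did. Without either of the unstimulated WT arrays, Cybrd1, Eps8l1, Insl6, Plac8 and Rraga remained. Without either of the unstimulated KO arrays, all 20 did. The direction of all 20 was kept in each of these fits. That was fixed in advance, because in each of the 20 the KO and WT arrays did not overlap. For Rraga the difference without KO array 1 was -2.02 with a limma adjusted p of 0.145.

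The 2 most stable rises were Eps8l1 and Cybrd1. Eps8l1, a relative of the actin regulator Eps8, read 8.86, 8.25, 5.50 and 5.51 and rose by 3.05 ± 0.26 (limma adjusted p = 0.000238). The WT signals of Eps8l1 lay below the 25th percentile of their arrays. Cybrd1, a membrane reductase that turns ferric into ferrous iron, read 10.60, 10.55, 8.03 and 8.03 and rose by 2.55 ± 0.22 (limma adjusted p = 0.000238). The 2 arrays of each group were within 0.05 of each other for Cybrd1. It was the 1 gene of 12 iron genes that passed the test (0.103% of all genes passed), and the list's median was -0.10.

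Plac8 and Hpgds also rose by large amounts. Plac8, a small cysteine-rich protein, had the largest difference: it read 11.88, 11.68, 8.99 and 8.02 and rose by 3.27 ± 0.37 (limma adjusted p = 0.00445). Without KO array 1 or without WT array 2 the adjusted p of Plac8 was 0.0687 or 0.0834. Hpgds, the synthase of prostaglandin D2 in blood cells, read 10.11, 9.02, 6.34 and 6.79 and rose by 3.00 ± 0.41 (limma adjusted p = 0.0159). It was higher by 3.76 within the arrays numbered 1 and by 2.23 within those numbered 2.

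Ermn, Lilr4b, Cd200r4, Insl6 and Dcaf17 were the remaining large rises outside the lysosome, interferon and cytokine lists. Ermn, an actin-binding protein described in myelin-forming cells, rose by 2.11 ± 0.29 from WT signals of 5.09 and 4.94. Lilr4b, of an inhibitory immunoglobulin-like receptor family, read 10.91, 10.29, 8.88 and 8.20 and rose by 2.06 ± 0.33. Cd200r4, of the CD200 receptor family, rose by 1.95 ± 0.32, with a difference of 1.43 within the arrays numbered 1 and 2.47 within those numbered 2. Lilr4b and Cd200r4 have near-identical relatives whose transcripts the probes may share, so which member rose is uncertain. Insl6, of the insulin and relaxin family, read 10.86, 10.87, 9.02 and 8.87 and rose by 1.92 ± 0.25. Dcaf17, a substrate receptor of CUL4 ubiquitin ligases, rose by 1.84 ± 0.28.

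A further 6 called genes were added to the account after their values were seen. Itga9, an integrin subunit, read 9.18, 9.02, 7.25 and 7.39 and rose by 1.78 ± 0.27. Hgf, the ligand of the receptor MET, rose by 1.76 ± 0.29, and Il23r, the receptor subunit for interleukin-23, rose by 1.74 ± 0.30 with the weakest call of the 20 (limma adjusted p = 0.0488). Renbp, an enzyme of sugar amine metabolism, rose by 1.62 ± 0.26, and the lipocalin Lcn10 rose by 1.55 ± 0.24. The interferon-inducible Ifit1bl2 rose by 1.71 ± 0.27. In Eps8l1, Ermn, Ifit1bl2, Renbp, Hgf and Cd200r4 the WT mean lay below the 25th percentile of genes, where a log2 signal understates a change.

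**Figure D2:**
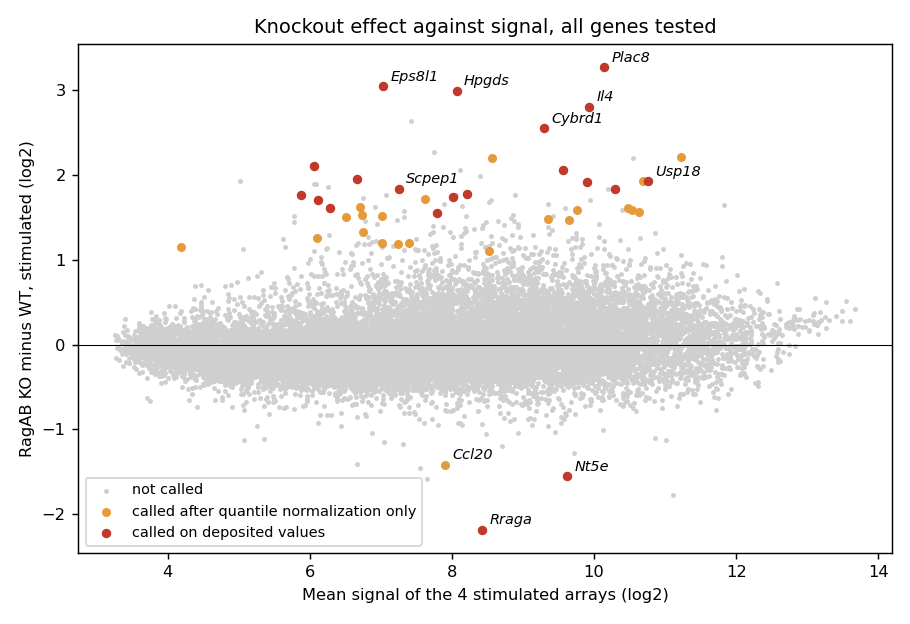
RagAB KO minus WT difference of each of 19505 genes (log2, vertical axis) against its mean signal on the 4 stimulated arrays (log2, horizontal axis). Red points are the 20 genes called on the deposited values, orange points the 22 genes called after quantile normalization only, and grey points the rest; Rraga and Nt5e are the red points below 0 and Ccl20 the orange one.

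Nt5e was the 1 fall besides Rraga. It encodes CD73, the ectoenzyme that makes adenosine from AMP on the surface of Tregs. Nt5e read 8.93, 8.76, 10.47 and 10.32 and fell by 1.56 ± 0.24 (limma adjusted p = 0.0287), by 1.55 within the arrays numbered 1 and 1.56 within those numbered 2. Entpd1, which encodes CD39, the enzyme before it in the same pathway, differed by 0.23 ± 0.32. The lower genes next in order did not pass the test on the deposited values. Ccl20, the ligand of CCR6, read 7.36, 7.02, 8.37 and 8.84 (-1.42 ± 0.26, limma adjusted p = 0.0604) and was called after quantile normalization (limma adjusted p = 0.0333). Id3, an inhibitor of E proteins, read 6.34, 7.37, 8.07 and 8.81 (-1.58 ± 0.34, limma adjusted p = 0.137). Bmp7, Tnfrsf10b, Adarb1, Dgat2, Il17f, Tiam1, Ak4 and Acot10 followed, with differences between -1.46 and -0.81.

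Lysosomal genes lay mostly above 0, with a single called member. Of 45 measured genes of the lysosome, autophagy and TFEB list, 1 rose and none fell, where 0.0923% of all genes rose. The list had a median of 0.33, or 0.27 after quantile normalization, against -0.06 and -0.03 for all genes. For all genes with a mean signal above the 75th percentile the deposited median was 0.08. Its median stayed between 0.21 (without WT array 2) and 0.44 (without WT array 1) when each array was left out. Without a test, 33 of the 45 lay above 0, against 41.5% of all genes. In both pairs of same-numbered arrays 29 lay above 0 (64.4%), against 25% of all genes. Scpep1, a lysosomal serine carboxypeptidase, read 8.27, 8.07, 6.47 and 6.19 and rose by 1.84 ± 0.28 (limma adjusted p = 0.0287).

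Scpep1, Tpp1 and Hexa lay highest in the list, followed by Rragd and Flcn, which it also holds. Other enzymes lay near 0, among them the protease Ctsb (0.04), the sialidase Neu1 (0.09), the glucuronidase Gusb (-0.16) and the protease Ctsz (-0.24). Hexa, a subunit of beta-hexosaminidase, read 10.14, 10.04, 8.98 and 8.23 (1.48 ± 0.32) and was called after quantile normalization (limma adjusted p = 0.041), not on the deposited values (0.138). Tpp1, a tripeptidyl peptidase, read 10.67, 10.13, 9.24 and 8.34 (1.61 ± 0.36, limma adjusted p = 0.163). Among membrane proteins the differences were 0.80 ± 0.25 for the calcium channel Mcoln1, 0.64 ± 0.26 for Lamp1 and 0.75 ± 0.27 for Lamp2. In each of Hexa, Tpp1, Mcoln1, Lamp1 and Lamp2 both KO arrays lay above both WT arrays. Among subunits of the proton pump, Atp6ap1 and Atp6v0d1 differed by 0.91 and 0.90, and Atp6v1e1 and Atp6v0e by 0.23 and -0.13. The transcription factors differed by -0.38 (Tfeb), -0.26 (Tfe3) and -0.03 (Mitf). Outside the list, Gaa, the lysosomal alpha-glucosidase, and Ctns, the lysosomal cystine exporter, were called after quantile normalization (differences of 1.61 ± 0.36 and 1.20 ± 0.27 as deposited). Also outside the list, Asah1, the acid ceramidase, read 9.69, 9.61, 8.40 and 8.04 (1.42 ± 0.28, limma adjusted p = 0.102).

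Promoters of 2 lysosomal members are shown because TFEB and TFE3 bind a short palindrome in genes of this list. The 250 bases before the RefSeq start are given 5′ to 3′ (GRCm38.p6), with TCACGTGA in capitals for Mcoln1 (chr8:3500269-3500518, plus strand) and CACGTG in capitals for Lamp1 (chr8:13158911-13159160, plus strand).
Mcoln1: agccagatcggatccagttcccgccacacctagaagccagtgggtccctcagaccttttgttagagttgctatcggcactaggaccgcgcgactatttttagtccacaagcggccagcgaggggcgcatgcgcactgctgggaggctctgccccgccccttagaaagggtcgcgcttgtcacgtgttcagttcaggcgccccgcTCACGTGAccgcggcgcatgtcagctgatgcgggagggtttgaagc
Lamp1: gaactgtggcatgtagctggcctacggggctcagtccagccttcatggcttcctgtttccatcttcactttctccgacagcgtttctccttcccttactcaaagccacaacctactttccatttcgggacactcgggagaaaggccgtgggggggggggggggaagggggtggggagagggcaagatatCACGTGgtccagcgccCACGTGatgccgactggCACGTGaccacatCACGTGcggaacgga
Both motifs read the same on both strands, and TCACGTGA contains CACGTG. Over the 300 bases from 250 before to 50 after the start, TCACGTGA was found in 7 of 37 list members with an entry (18.9%) and in 1.12% of 27025 genes, and CACGTG in 9 of 37 (24.3%) and 8.09%. The list was chosen for lysosomal and TFEB genes, so these shares do not bear on the knockout effect. In the 250 bases before the start, Scpep1, Hexa and Tpp1, the members with the highest differences, hold no TCACGTGA.

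Interferon-stimulated genes had the highest median of the 34 lists that are not cell type markers, as deposited. Of 32 measured genes of the type I interferon list, 1 rose and none fell, where 0.0923% of all genes rose and 0.0103% fell. The list's median was 0.53 (0.43 after quantile normalization), and 0.37 to 0.67 when each array was left out. At an unadjusted p below 0.05, 13 lay higher and 0 lower, where 3.69% of all genes lay higher. In both same-numbered pairs 24 lay above 0 (75%), against 25% of all genes. Usp18, which removes ISG15 and damps interferon receptor signalling, read 11.95, 11.48, 10.15 and 9.43 and rose by 1.93 ± 0.31 (limma adjusted p = 0.0356).

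Irf7, Cmpk2 and Ddx58 had the next highest values. Irf7, the factor that amplifies type I interferon, read 9.79, 9.75, 8.62 and 7.38 (1.77 ± 0.38, limma adjusted p = 0.138). Cmpk2, a mitochondrial nucleotide kinase, read 7.57, 7.42, 6.26 and 5.67 and was called after quantile normalization (limma adjusted p = 0.0312). The RNA sensors Ddx58 (RIG-I) and Ifih1 (MDA5) differed by 1.51 ± 0.40 and 0.99 ± 0.28. WT array 2 was the lowest array for Irf7, Cmpk2, Ddx58 and Ifih1, and without it the differences of Irf7 and Ddx58 were 1.15 and 0.82. Antiviral effectors such as Ifit1, Oasl2, Ifit2, Isg15 and Rsad2 differed by 0.86, 0.73, 0.63, 0.38 and 0.25. The 4 genes of the list below 0 were Mx1, Mx2, Oas3 and Ifit3, at -0.04, -0.22, -0.09 and -0.25. None of 11 interferon-gamma-induced GTPases (Gbp and Irg families) passed the test in limma. Their median was 0.39 (0.20 without WT array 2). At an unadjusted p below 0.05, 3 lay higher (3.69% of all genes), and Gbp2 differed by 0.53 ± 0.24.

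The promoter of Ifit1bl2 is shown because it is a called gene with paired copies of the element that interferon-activated factors bind. The 250 bases before the first of its 2 RefSeq starts (GRCm38.p6, chr19:34640744-34640993, minus strand) are given 5′ to 3′, with matches to GAAA, any 2 bases, GAAA in capitals.
Ifit1bl2: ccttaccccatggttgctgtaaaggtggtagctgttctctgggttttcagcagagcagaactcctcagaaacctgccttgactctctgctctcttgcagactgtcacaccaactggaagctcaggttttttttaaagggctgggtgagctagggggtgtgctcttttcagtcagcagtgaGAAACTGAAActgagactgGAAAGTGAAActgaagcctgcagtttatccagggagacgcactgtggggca
The matches begin at -70 and -51 relative to the start, and the second listed start has no match in its 250 bases. Ifit1bl2 is not in the type I interferon list. Ddx58, a member with a high difference, has no match in the 250 bases before its start. Searched on both strands over 300 bases, the motif was found in 14 of 23 interferon list members with an entry (60.9%) and in 3.99% of 27025 genes. That list was chosen for interferon-stimulated genes, so its share does not bear on the knockout effect. Ifit1bl2 has a close relative, Ifit1bl1, which differed by 1.09, and the probes may not separate them.

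**Figure D3:**
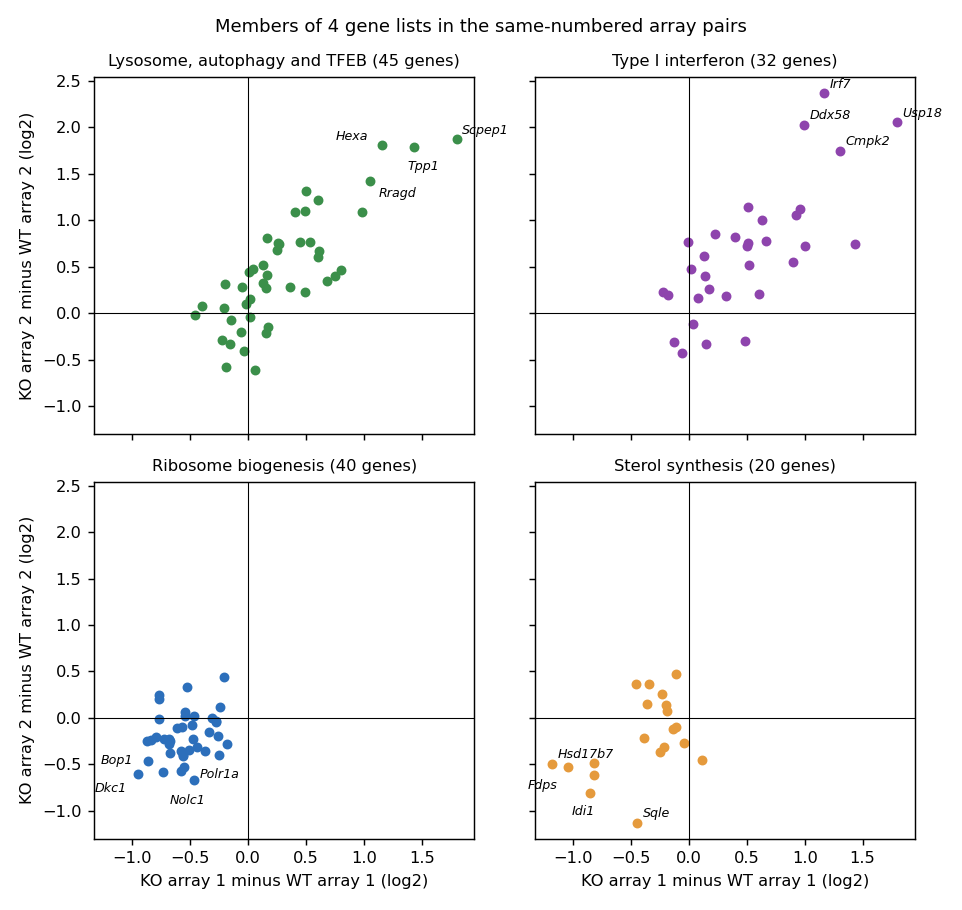
Differences of single genes within the same-numbered pairs of arrays (log2), KO array 1 minus WT array 1 on the horizontal axis and KO array 2 minus WT array 2 on the vertical axis, for 4 gene lists. Most points of the lysosome and interferon lists lie to the upper right of 0 and most of the ribosome biogenesis list to the lower left, with 32 of its 40 genes below 0 in both pairs.

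Among 26 cytokine genes, Il4 rose and 25 did not pass the test, where 0.0923% of all genes rose. Il4, the signature type 2 cytokine, read 11.21, 11.45, 9.26 and 7.79 and rose by 2.81 ± 0.46 (limma adjusted p = 0.0426). The difference was 1.95 within the arrays numbered 1 and 3.66 within those numbered 2, where WT array 2 was lowest. Ifng read 9.34, 8.94, 7.83 and 6.35 (2.05 ± 0.39, limma adjusted p = 0.0838). The growth factor Csf1 read 11.02, 11.22, 9.82 and 8.74 (1.84 ± 0.40, limma adjusted p = 0.138). Csf2, Il3 and Il10 differed by 0.87 ± 0.26, 0.81 ± 0.31 and 0.83 ± 0.55. The list's median was 0.04.

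Core Treg genes were spread. Of 17 measured, Nt5e fell, 16 did not pass the test and 14 lay above 0. Of all genes 0.0103% fell and 41.5% lay above 0. The median was 0.25, but it moved between -0.06 and 0.63 without WT array 2 and without WT array 1, so its sign rested on WT array 2. Il2ra, the CD25 chain of the interleukin-2 receptor used for sorting, read 9.17, 9.16, 8.53 and 8.33 (0.74 ± 0.24). Penk, Itgae and Cd83 lay highest at 1.65 ± 0.47, 1.18 ± 0.50 and 1.14 ± 0.24. Ctla4, the inhibitory receptor that removes CD80 and CD86, read 11.74, 11.60, 12.36 and 12.03 (-0.53 ± 0.25, limma adjusted p = 0.947). Ikzf2 (Helios), Icos, Lag3, Pdcd1 and Tigit differed by 0.82, 0.09, 0.21, -0.31 and -0.16. Myc, the driver of growth programmes in activated T cells, differed by 0.22 ± 0.31.

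Several genes of other kinds joined the called ones after quantile normalization. Abcb1a and Abcb1b, the near-identical P-glycoprotein transporters, differed by 2.21 ± 0.41 and 1.59 ± 0.28 as deposited (limma adjusted p = 0.0755 and 0.056). Dhrs3, a retinaldehyde reductase, read 11.54, 11.77, 9.80 and 9.66, and Ndrg1, of the NDRG family, read 11.59, 11.24, 10.13 and 9.58. Rundc3b, Uap1l1, Ptpn3, Olr1, Cd36, Peli2, Nefm, Rai14, Enpp5, Mettl8, H2-DMb1, H2-Aa and 5430427O19Rik completed the list, with Hexa, Gaa, Ctns, Cmpk2 and Ccl20 named above.

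Genes of biosynthesis lay on the other side of 0, with no member passing the test in limma. Ribosome biogenesis showed this most evenly: 39 of 40 genes lay below 0, with a median of -0.37 (-0.46 after quantile normalization). At an unadjusted p below 0.05, 4 lay lower and 0 higher (1.38% of all genes lay lower), or 14 lower after quantile normalization (2.97% of all genes). In 28 of the 40 both KO arrays lay below both WT arrays, against 26.2% of all genes. Nolc1, a nucleolar chaperone, read 9.48, 10.09, 10.22 and 10.67 (-0.66 ± 0.26, limma adjusted p = 0.904), and Polr1a, the large subunit of RNA polymerase I, read 8.54, 8.69, 9.11 and 9.26 (-0.57 ± 0.23). Bop1, Rrp9 and Dkc1 differed by -0.66, -0.57 and -0.78. The list's median was -0.61 without KO array 2 and -0.15 without KO array 1.

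Nucleotide and one-carbon genes had the lowest median of the lists as deposited, -0.41, and -0.43 after quantile normalization, where ribosome biogenesis was lower. Of 26 genes 23 lay below 0, and 5 lay lower at an unadjusted p below 0.05 (1.38% of all genes), or 12 after quantile normalization (2.97% of all genes). Umps, which completes UMP synthesis, read 8.23, 9.11, 9.36 and 9.70 (-0.86 ± 0.31), and Mthfd2 and Mthfd1, of the folate cycle, differed by -0.79 ± 0.26 and -0.75 ± 0.29. Without KO array 1 the median of this list was -0.21. Translation factors and aminoacyl-tRNA synthetases had a median of -0.30, with 22 of 29 below 0 and 5 lower at an unadjusted p below 0.05, or 11 after quantile normalization, against the same 1.38% and 2.97% of all genes. Farsb and Tars, which charge phenylalanine and threonine tRNAs, differed by -0.77 ± 0.25 and -0.68 ± 0.23. Without KO array 1 the median of this list was -0.16.

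Sterol synthesis genes lay below 0 in 17 of 20 cases, with a median of -0.17 (-0.29 without WT array 2), where 41.5% of all genes lay above 0. At an unadjusted p below 0.05, 5 lay lower and 0 higher, against 1.38% and 3.69% of all genes. Idi1, Hsd17b7, Fdps, Sqle and Cyp51, enzymes from isopentenyl diphosphate to cholesterol, differed by -0.83, -0.84, -0.79, -0.79 and -0.72. For Fdps the signals were 9.99, 10.40, 11.03 and 10.92. Fatty acid synthesis genes had a median of -0.09, with -0.61 ± 0.24 for Acaca, the carboxylase that opens the pathway. Respiratory chain, glycolysis and amino acid transporter lists had medians of -0.15, -0.17 and -0.16, which rested on single arrays. Without KO array 1 the respiratory chain and glycolysis medians were 0.03 and -0.05, and without WT array 1 the transporter and fatty acid medians were 0.08 and 0.02. Slc7a5, a subunit of the main leucine transporter, read 9.21, 9.98, 10.23 and 10.37 (-0.71 ± 0.39).

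The cell cycle lists gave no direction that both pairs shared. Mitosis genes had a median of -0.39 within the arrays numbered 1 and 0.15 within those numbered 2, and DNA replication genes -0.34 and 0.05. Mki67, the proliferation marker, read 8.21, 8.80, 9.58 and 7.18, with the lowest and the highest signal both in WT. Of the other lists, the interleukin-2 receptor, STAT5 and SOCS genes (14, median 0.31, or 0.18 without WT array 2) and the resting and central T cell genes (21, median 0.25, or 0.14 without KO array 1) lay mostly above 0. Heat shock chaperones (18, median -0.25, or -0.06 without KO array 1 and -0.40 without KO array 2) and Bcl2 family genes (17, median -0.25) lay mostly below. None of these had a called member.

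**Figure D4:**
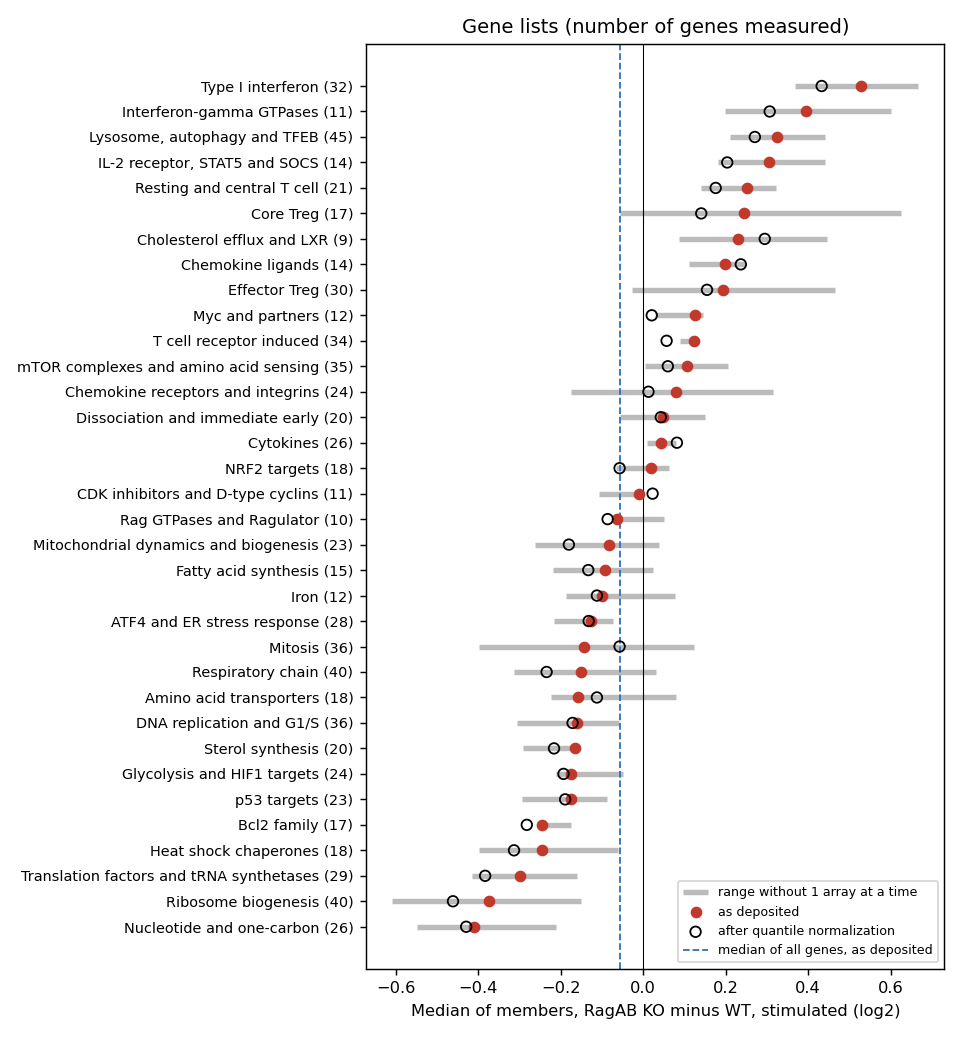
Median RagAB KO minus WT difference (log2, horizontal axis) of the measured members of 34 gene lists (vertical axis, with the number of genes). Red points are deposited values, open circles values after quantile normalization, grey bars the range when each of 8 arrays is left out, and the dashed line the median of all genes; the type I interferon list is highest at 0.53 and the nucleotide and one-carbon list lowest at -0.41.

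Markers of other cell types were read beside these groups. Neutrophil markers had a median of 0.66 over 9 genes. Their mean signal was 6.59, 8.51, 7.04 and 6.57, so KO array 2 stood alone among the stimulated arrays. Without stimulation the KO array numbered 2 was also highest (8.60), against 6.99 in KO array 1 and 7.37 and 6.36 in WT. After stimulation S100a8 read 5.08, 8.99, 5.47 and 4.81, and without KO array 2 the list's median was -0.14. Plasma cell marker Jchain read 7.56, 10.18, 9.33 and 6.94. Among 12 macrophage markers the mean signal was 6.10, 6.30, 6.11 and 6.23, with Lyz2 at 8.34 in KO array 2 and Csf1r between 5.96 and 6.84. B cell markers had a mean of 7.09, 7.21, 7.10 and 7.35. The CD8 and NK cell lists had medians of 0.10 and 0.16, and the conventional CD4, plasma cell, erythroid and stromal lists of -0.13, -0.04, -0.15 and -0.23. In the CD8 list Eomes, a T-box factor, read 8.94, 8.94, 7.84 and 6.51 (1.76 ± 0.35, limma adjusted p = 0.103). The part of these cells in the results was not tested. Fewer cells of a type and less RNA per cell cannot be told apart in such samples.

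Some class II antigen presentation genes, named after their values were seen, lay higher in both KO arrays. H2-Aa read 10.57, 10.17, 8.97 and 8.84 (1.47 ± 0.30) and H2-DMb1 8.32, 8.64, 6.96 and 6.56 (1.72 ± 0.30), and both were called after quantile normalization (limma adjusted p = 0.0303 and 0.0235). H2-Eb1 and H2-Ab1 differed by 1.44 ± 0.40 and 0.82 ± 0.30. The dendritic cell markers Flt3, Itgax and Clec9a lay between 4.65 and 6.28 on the 4 arrays and differed by -0.29, -0.02 and -0.19. Ccr9 and Xcr1 of the same list differed by 0.61 and 0.48, with the highest signal of each in KO array 2 (7.59 and 6.76). Ciita, the regulator of class II genes, differed by -0.18, and Siglech by -0.50. The part of dendritic cells in these values was not tested. The whole list of 13 had a median of -0.02 and a mean signal of 7.50, 7.77, 7.38 and 7.35.

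The knockout effect was also read in the unstimulated arrays of the same experiment, where 22 genes were called (0.113%). Of the 20 genes called after stimulation 7 were also called there: Cybrd1, Eps8l1, Hpgds, Itga9, Lcn10, Nt5e and Rraga. Without stimulation, Eps8l1 was higher by 2.57, Hpgds by 2.83 and Itga9 by 2.40, and Nt5e was lower (-1.80). Of the 20, 18 had the same sign in both states, against 40.6% of all genes. The exceptions were the interferon-inducible Usp18 and Ifit1bl2, which differed by -0.05 and -0.16 without stimulation. The type I interferon list had an unstimulated median of -0.13 and the GTPase list of -0.83. Neutrophil markers, highest on the KO arrays numbered 2 in both states, had an unstimulated median of 1.12.

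The test of the difference between the states called 0 genes in limma (0%), with a smallest adjusted p of 0.728 and 1202 genes (6.16%) at an unadjusted p below 0.05. The fit of all 20 arrays called 25 and a trended robust prior 10. The difference between the states was 1.98 ± 0.44 for Usp18, 1.87 ± 0.39 for Ifit1bl2, 1.71 ± 0.52 for Plac8 and 1.00 ± 0.31 for Cybrd1. It was 0.17 ± 0.58 for Hpgds and 0.25 ± 0.33 for Nt5e.

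**Figure D5:**
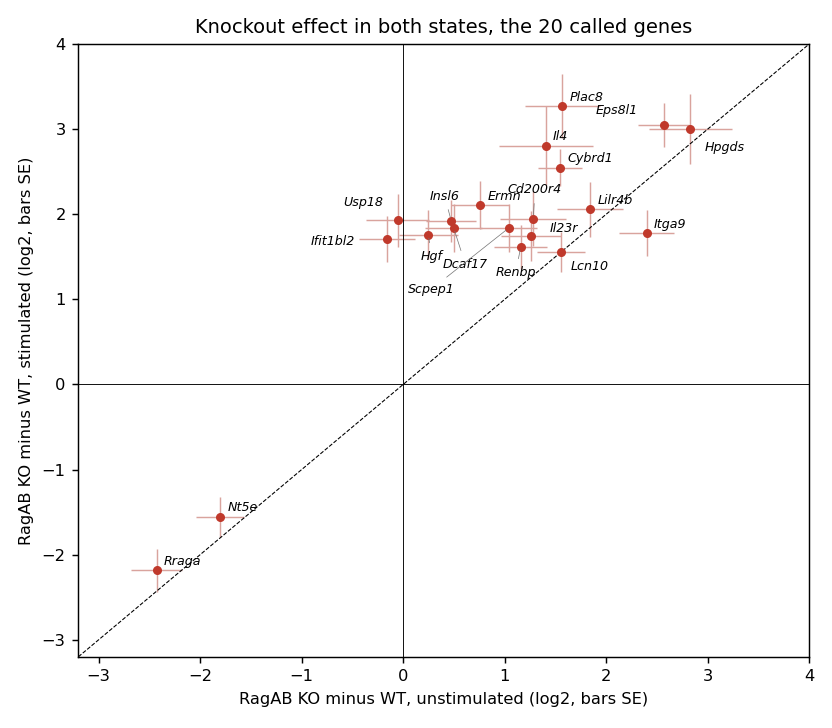
RagAB KO minus WT difference of the 20 called genes without stimulation (horizontal axis) and after stimulation (vertical axis), both log2 with standard errors as bars. The dashed line marks equal differences; Nt5e, Rraga, Hpgds and Lcn10 lie near it, and Usp18 and Ifit1bl2 lie beside the vertical zero line.

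Loss of Rheb1 and Rheb2, the GTPases that switch mTORC1 on, gave a second comparison of stimulated Tregs, with 3 KO and 3 WT arrays of its own experiment. For those WT arrays the treatment field contradicts the title and the source name, and the titles were used. Of the 20 genes, 15 differed between the Rag and the Rheb effect in the fit of all 20 arrays (37 of 19505 genes, 0.19%). The 20 were picked by their values on the stimulated Rag arrays, which also enter this difference. That choice alone raises their share above that of all genes, so the count is no independent support. Il4 was 3.30 ± 0.48 higher in the Rag effect (limma adjusted p = 0.00217), with -0.49 in the Rheb effect. Cybrd1 and Plac8 differed by 2.44 ± 0.30 and 2.87 ± 0.44 between the effects, with Rheb effects of 0.11 and 0.40. Scpep1 differed by 1.71 ± 0.29 and Usp18 by 2.12 ± 0.31, with Rheb effects of 0.13 and -0.19. Ermn was the called gene with the closest values, 2.11 in the Rag and 1.78 in the Rheb effect, and a difference of 0.33 ± 0.32 (limma adjusted p = 0.827). Idi1, Hsd17b7, Sqle and Fdps had Rheb effects of -0.95, -1.04, -0.87 and -0.61, beside Rag effects of -0.83, -0.84, -0.79 and -0.79. Ccl20 read -1.23 in the Rheb effect and -1.42 in the Rag effect. The array medians of the Rheb experiment lay between 7.67 and 7.77, above all those of the Rag experiment, and each effect was taken against its own WT arrays. The labels used here give 8 h of stimulation for the stimulated Rag arrays and no time for the Rheb arrays. Kdm5d was bright on all 12 Rheb arrays (8.50 to 9.15), unlike the Rag arrays numbered 2. The part of these differences between the experiments was not tested.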

How the data were processed

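Gene expression was measured on Clariom S arrays, 1 per sample. The authors deposited log2 signals per probe set; the submitters' processing notes name RMA and Affymetrix Expression Console 1.1. RMA usually includes background correction and quantile normalization, yet array medians differ, so whether the arrays were normalized together is not known. Of 28846 probe sets, 19572 carried 1 gene; the brightest probe set stood for each of 55 genes with several, which left 19505 genes, named from GEO's platform annotation. The number of arrays limits the precision.

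limma 3.58.1 in R 4.3.3 fitted the 4 groups of 2 arrays of the Rag experiment without rescaling, and a fit of all 20 arrays compared the Rag with the Rheb effect. A gene was called at a Benjamini-Hochberg adjusted p below 0.05 over all genes, two-sided; errors are SE. With 2 against 2 arrays an exact permutation test cannot go below 0.333. No label ties arrays to animals. The Y-linked genes Kdm5d and Uty differed between the 2 arrays of each Rag group, so these did not repeat the same RNA sample. The p-values reflect the spread between these samples, which holds that difference and may be technical in part. All gene lists (45, with 887 genes measured) and tests were chosen with earlier results of these data known.

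Named were Rraga and Rragb; Il2ra, Ctla4, Ikzf2, Icos, Myc and Mki67; up to 12 largest called rises and falls with non-overlapping arrays, filled up for falls by smallest unadjusted p among bright genes; and from each list up to 4 called members, else the 2 of smallest unadjusted p. The remaining called genes, those called after quantile normalization and further list members were named after their values were seen. Motifs were searched in RefSeq promoters. Alternatives were quantile normalization of the 8 arrays, median centring, removing the dimmest 40% of genes, a trended robust prior, other sets of arrays, a block on the replicate number, and leaving out each array in turn. The fit was tested on simulated data with independent noise on each array. No simulated array stood apart as WT array 2 did, so the dependence of calls on single arrays was not covered.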

Additional observations from a re-analysis of the deposited data

Results flagged for a closer look

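The test of the difference between the effects of RagAB loss and Rheb1/2 loss in stimulated Tregs called 37 genes. It used the fit of all 20 arrays and a limma adjusted p below 0.05. Only those named in this report, mostly for their values in the Rag comparison, are listed here. Values are Rag minus Rheb differences on the log2 scale. Among the genes called in the Rag comparison, the difference was 3.3 for Il4, 2.9 for Hpgds, 2.87 for Plac8, 2.44 for Cybrd1 and 2.31 for Eps8l1. It was 2.21 for Hgf, 2.12 for Usp18, 2.03 for Lilr4b, 1.85 for Renbp, 1.71 for Scpep1, 1.6 for Lcn10, 1.46 for Insl6 and 1.46 for Dcaf17. It was -2.06 for Rraga, the deleted gene, and -1.23 for Nt5e.

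Among named genes not called in the Rag comparison on the deposited values, the difference was 2.98 for Abcb1a and 2.12 for Abcb1b, the P-glycoprotein transporters. It was 2.29 for Rundc3b, 2.19 for Csf1, 1.98 for Asah1, 1.94 for Hexa, 1.81 for Olr1, 1.77 for Ptpn3, 1.68 for Uap1l1 and 1.57 for H2-DMb1. Rhebl1, which encodes Rheb2, is a deleted gene of the Rheb experiment. It differed by 1.54, with a value of 0.78 in the Rag effect and -0.76 in the Rheb effect. No group holds the 4 to 10 arrays that a test for outlying arrays needs.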

How the results depend on the processing

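The number of genes called in the stimulated comparison was 20 on the deposited values and rose under most alternatives: 42 after quantile normalization, 76 with arrays centred on their medians, 57 without the dimmest 40% of genes, 106 with a trended robust prior, 274 with only the 4 stimulated arrays and 227 with all 20 arrays. Leaving out 1 array gave 2 to 109 calls, and 1 to 116 after quantile normalization, where it was 5 without stimulated KO array 2, 13 without either unstimulated WT array, and 86 and 92 without unstimulated KO arrays 1 and 2. The direction of the 20 genes was kept wherever they were tested, and 19 of 20 were still called with the trended robust prior. With 1 array left out on the deposited values, the direction was fixed in advance, because their KO and WT arrays did not overlap.

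The replicate numbers are shared between the groups, but with 2 pairs the labels do not show that they pair the samples; same-numbered KO and WT arrays deviated together with a correlation of 0.098. With the replicate number as a block, 42 genes were called, among them all 20, and 51 after quantile normalization. The block changed none of the 20 calls.

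The interaction between knockout and stimulation called 0 genes, 1 without the dimmest 40% of genes, 10 with the trended robust prior and 25 with all 20 arrays. Leaving out 1 array gave 0 to 387 calls (0 to 53 after quantile normalization, 3 without stimulated WT array 1), with the highest without unstimulated KO array 2. The causes were not tested. The Rag minus Rheb difference was computed only in the fit of all 20 arrays, and the interaction has no value with only the 4 stimulated arrays.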
